A study of Mus musculus with 4 samples.

Results

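The non-classical MHC class I genes described here are H2-Q4, H2-Q6, H2-Q7, H2-T22, H2-T23, H2-T24, H2-M3 and Cd1d1. They were taken by gene symbol, and all 8 were found among the 21959 genes of both deposited expression tables. The study sequenced mRNA libraries of dendritic cells (DCs) and of CD3+ T cells recovered from MC38 tumours, a transplantable mouse colon carcinoma. Mice had received X-Ray+O-IMDQ, a prodrug treatment that the submitters describe as activated by radiotherapy, or PBS, and cells were taken 72 h after the second treatment. The groups were DCs of X-Ray+O-IMDQ mice, DCs of PBS mice, CD3+ T cells of X-Ray+O-IMDQ mice and CD3+ T cells of PBS mice, with 1 library in each group. All mice carried MC38 tumours. The X-ray and the prodrug were given together, so their contributions cannot be told apart. The strain and age of the mice, the doses, the number of animals behind a library and the sort that gave the DCs are not given in the sources used here.

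Non-classical class I molecules share the fold of the classical H2-K and H2-D molecules, a heavy chain that usually pairs with beta2-microglobulin, but they vary little between individuals and present special ligands to small sets of receptors. Qa-1, the product of H2-T23, carries leader peptides of classical class I chains to the CD94/NKG2 receptors of natural killer (NK) cells and activated CD8 T cells. H2-M3 presents N-formylated peptides, Cd1d1 presents lipids to natural killer T (NKT) cells, and H2-T22 is a ligand of some gamma delta T cells.

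The libraries held 14056428 counts assigned to genes in treated DCs, 23797357 in PBS DCs, 18463944 in treated T cells and 18649824 in PBS T cells. With 1 library per group there is no replicate error, and every ratio below compares 2 libraries, not the conditions. Ratios are treated over PBS, on the log2 scale, of counts scaled by edgeR's trimmed mean of M values (TMM), with exact 95% intervals that cover counting error only. A gene counted as measured where one of the 2 libraries reached 20 counts, and was called higher or lower past 2-fold with an interval that excluded 0. The DC libraries differed broadly: among 7857 genes with at least 100 counts in PBS DCs, 942 (12%) had 0 counts in treated DCs. Of the 10 DC markers, 4 were called higher and 3 lower in treated DCs. Itgax had 3547 counts in treated DCs and 3982 in PBS DCs, a scaled log2 ratio of 0.65 that was not called. Clec9a had 952 counts in treated DCs and 154 in PBS DCs, Flt3 69 and 16, Zbtb46 57 and 9, and Batf3 0 and 479. Cd209a had 329 counts in treated DCs and 9441 in PBS DCs, and H2-Ab1 82819 and 1170633. All 8 T cell markers were above 0 in both T cell libraries; in DCs, Cd3e and Cd247 were at 0 in both libraries, and the other 6 were uneven. Cd3d had 812 counts in treated DCs and 434 in PBS DCs, Cd5 278 and 1, and Cd28 224 and 5, whereas Lck had 0 counts in treated DCs and 607 in PBS DCs, Cd2 0 and 574, and Cd3g 1 and 576.

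In DCs 6 of the 8 genes were lower in the treated library, 1 was higher and 1 passed neither limit. H2-M3 was 3.36-fold lower, Cd1d1 2.55-fold lower and H2-T24 undetected in treated DCs, whereas H2-Q4 was 11.2-fold higher and H2-T23 differed by 0.08 on the log2 scale. These calls stand against a background in which 41.8% of the 10316 genes measured in DCs were called lower and 30.2% higher. The median ratio of the 8 genes was -1.29, beside -0.36 for all genes measured in DCs. With ratios centred on the median of all genes, 3 of the 8 were called lower in DCs, H2-Q6, H2-T24 and H2-M3, beside 3911 of the 10316 genes, a share close to that of the 8. Summed counts of the close relatives H2-Q4, H2-Q6 and H2-Q7 gave a DC ratio that was not called. Of the 1146 counts so summed in PBS DCs, H2-Q7 holds 1019, so the sum says little about H2-Q4 or H2-Q6 alone.

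In T cells 2 of the 8 genes, H2-T24 and Cd1d1, were called higher in the treated library and none was called lower. The background was 18.3% called higher and 25.4% called lower among 11058 genes. The other 6 stayed within 2-fold, although the counting interval lay above 0 for 6 of the 8 genes and below 0 for H2-Q7 alone. How many of all genes had such intervals was not counted, so the interval counts have no background. The median of the 8 was 0.56, beside -0.07 for all genes measured in T cells. None of the 8 was called in the same direction in both cell types. The share of all genes so called was not computed, so this count cannot be set against a background.

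**Figure D1:**
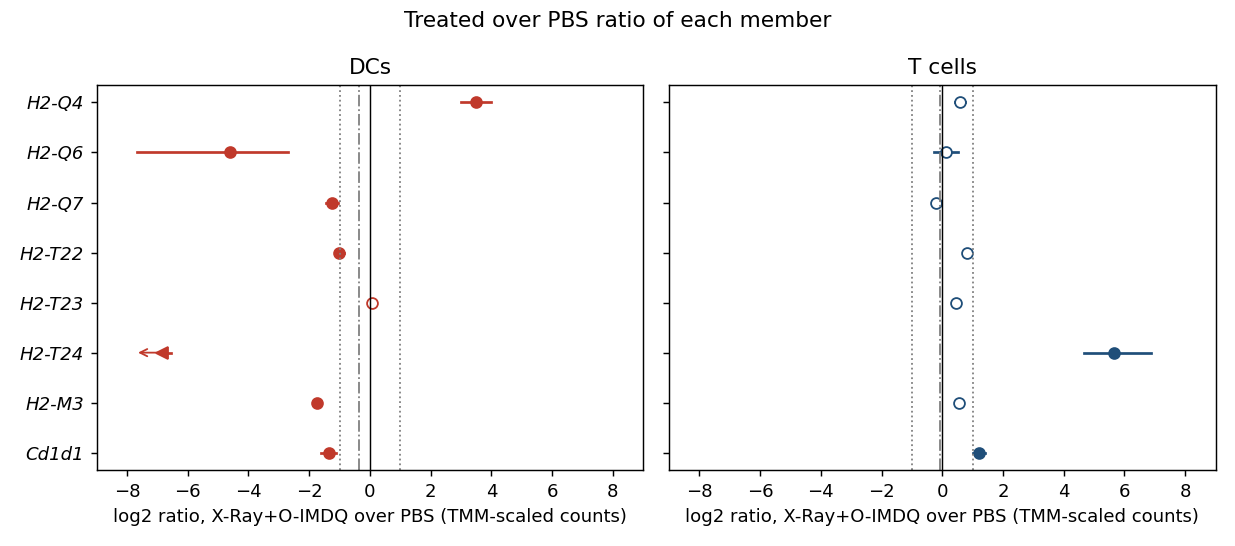
Log2 ratios of X-Ray+O-IMDQ over PBS for the 8 genes in DCs (left panel) and T cells (right panel), with 1 library per group; bars are exact 95% counting intervals, filled points are called genes, open points are not called, dotted lines mark 2-fold, and the dash-dotted line is the median of all measured genes. The arrow on H2-T24 in DCs marks a ratio set by a floor of 3 counts in treated DCs. H2-Q4 is the one gene called higher in DCs, and H2-T24 and Cd1d1 are the genes called higher in T cells.

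Deposited FPKM, which divide counts by gene length and library total, allow the genes to be ordered within a library. DC and T cell levels come from separate tables and are set side by side, with no ratio between the cell types. H2-M3 was the highest of the 8 in all 4 libraries, followed by H2-T23 in treated DCs and in both T cell libraries. In PBS DCs the next was H2-T22, whose counting interval of 21.4 to 23.5 FPKM overlapped that of H2-T23, 19.6 to 21.8 FPKM. In treated DCs the order ran H2-M3, H2-T23, H2-T22, H2-Q4, Cd1d1, H2-Q7, H2-Q6 and H2-T24, with overlapping intervals for Cd1d1 and H2-Q7 and for H2-Q6 and H2-T24. In PBS DCs Cd1d1 and H2-T24 overlapped as well, and H2-Q4 was last. Treated T cells had the order H2-M3, H2-T23, H2-T22, H2-Q7, H2-Q4, Cd1d1, H2-T24 and H2-Q6, where only H2-Q4 and Cd1d1 overlapped, and in PBS T cells H2-T24 was last and no neighbouring pair overlapped.

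**Figure D2:**
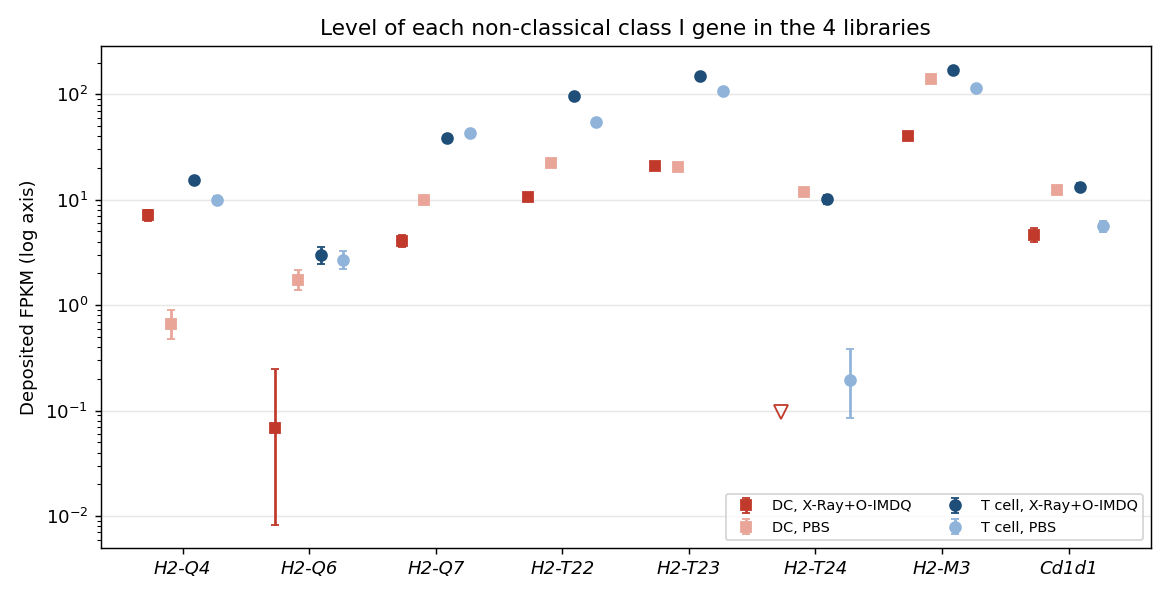
Deposited FPKM (log axis) of the 8 genes in each of the 4 libraries, treated before PBS within each cell type; bars are exact 95% Poisson intervals of the count carried to FPKM, and the open triangle is the level that 3 counts would give for H2-T24, which had 0 counts in treated DCs. H2-M3 is the highest point in every library, and H2-T24 spans from undetected in treated DCs and 0.197 FPKM in PBS T cells to 11.8 FPKM in PBS DCs.

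Promoter sequence is shown for the 4 genes with the highest T cell ratios that have a promoter in the RefSeq table used here (build GRCm38.p6), because class I promoters carry a known arrangement of an interferon-stimulated response element upstream of an SXY module. Each window runs from 250 bases before to 50 bases after the annotated start, 300 bases in all, and 6 of the 8 genes had one. H2-T24 and Cd1d1, the genes called higher in T cells, had no window. The 4 genes shown were not called in T cells. The windows of H2-T22 (chr17:36042693-36042992, minus strand), H2-Q4 (chr17:35379367-35379666, plus strand), H2-M3 (chr17:37269984-37270283, plus strand) and H2-T23 (chr17:36032652-36032951, minus strand) are written 5′ to 3′ on the gene's strand, with capitals marking, on either strand, GAAANNGAA (an interferon-response core), CCAAT (the NF-Y box), TGACG (the core of a CREB/ATF site) and GTTTCACTT.
H2-T22: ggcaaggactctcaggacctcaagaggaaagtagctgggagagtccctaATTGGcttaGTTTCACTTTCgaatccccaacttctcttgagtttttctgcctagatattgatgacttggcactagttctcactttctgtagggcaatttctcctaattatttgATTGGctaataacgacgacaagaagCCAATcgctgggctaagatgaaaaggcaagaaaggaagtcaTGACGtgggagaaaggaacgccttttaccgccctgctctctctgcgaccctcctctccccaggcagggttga
H2-Q4: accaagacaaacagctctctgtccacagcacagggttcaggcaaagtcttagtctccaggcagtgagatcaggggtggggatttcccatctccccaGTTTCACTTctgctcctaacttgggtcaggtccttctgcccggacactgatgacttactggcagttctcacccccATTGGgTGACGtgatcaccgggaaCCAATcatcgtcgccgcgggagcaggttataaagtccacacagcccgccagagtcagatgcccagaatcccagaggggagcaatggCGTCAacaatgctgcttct
H2-M3: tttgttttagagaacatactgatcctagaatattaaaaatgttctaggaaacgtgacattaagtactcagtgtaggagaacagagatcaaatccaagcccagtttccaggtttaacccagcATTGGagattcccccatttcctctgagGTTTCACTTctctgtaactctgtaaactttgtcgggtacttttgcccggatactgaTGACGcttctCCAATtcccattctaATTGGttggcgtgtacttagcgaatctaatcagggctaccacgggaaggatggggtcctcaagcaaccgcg
H2-T23: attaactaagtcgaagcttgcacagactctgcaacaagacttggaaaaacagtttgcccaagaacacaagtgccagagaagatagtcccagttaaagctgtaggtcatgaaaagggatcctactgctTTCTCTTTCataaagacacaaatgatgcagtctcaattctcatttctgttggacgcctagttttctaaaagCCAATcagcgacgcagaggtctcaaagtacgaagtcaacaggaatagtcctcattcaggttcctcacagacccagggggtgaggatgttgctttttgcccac

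On both strands, GAAANNGAA was found in 2 of the 6 windows, those of H2-T22 and H2-T23, and in 8.56% of 32851 promoter windows of the same length. In H2-T22 it began 190 bases before the start and in H2-T23 123 bases before it. CCAAT was present in 6 of 6 windows and in 37.4% of all windows. TGACG was present in 4 of 6, H2-Q4, H2-Q7, H2-T22 and H2-M3, and in 20.8% of all. The related genes H2-Q4 and H2-Q6 hold CCAAT at the same places, beginning 79 and 55 bases before the start. The 6 windows are therefore not independent, and their counts are not a test against the share of all windows. The run GTTTCACTT was chosen after the windows were compared, as the longest run shared in one orientation by all but 1 of the 6. The window without it was that of H2-T23, and 131 of all windows (0.399%) held it; in H2-T22 it overlaps the GAAANNGAA match. These are matches of letters, not measured binding sites. Only the exact GAAANNGAA form was searched, so a window without it may still hold an interferon-response element. Whether GTTTCACTT is part of such an element was not tested. Of the 5 genes with the run, H2-Q4 was called higher in DCs, and H2-Q6, H2-Q7, H2-T22 and H2-M3 were called lower there. H2-T23, without it, passed neither limit in either cell type. A link between the run and the calls was not tested.

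The Q region genes lie on chromosome 17, in the deposited GRCm39 coordinates: H2-Q4 (ENSMUSG00000035929) at chr17:35598593-35604266, H2-Q6 (ENSMUSG00000073409) at chr17:35643826-35649031 and H2-Q7 (ENSMUSG00000060550) at chr17:35658131-35662749, all on the plus strand. H2-Q6 and H2-Q7 belong to the genes for Qa-2, an antigen held at the cell surface by a lipid anchor or secreted. H2-Q7, the most abundant of the 3 in PBS DCs and in both T cell libraries, had 245 counts (4.09 FPKM) in treated DCs, against 1019 counts (10.04 FPKM) in PBS DCs. In T cells it had 3001 counts (38.1 FPKM) in the treated library, against 3422 counts (43.0 FPKM) in the PBS library. It was lower in treated DCs, with a ratio of -1.24 (95% interval -1.44 to -1.04), and differed by -0.20 (-0.27 to -0.13) in T cells, inside the 2-fold limit.

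H2-Q6 had 2 counts (0.0682 FPKM) in treated DCs, against 86 counts (1.73 FPKM) in PBS DCs, a ratio of -4.61 with a wide interval of -7.68 to -2.71. In T cells the levels were close, with 115 counts (2.99 FPKM) in the treated library and 105 counts (2.70 FPKM) in the PBS library, and the interval of the ratio, -0.28 to 0.51, covered 0. H2-Q6 was thus near the limit of detection in treated DCs and low in each of the other libraries.

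H2-Q4 went the other way in DCs. It had 259 counts (7.10 FPKM) in treated DCs, against 41 counts (0.664 FPKM) in PBS DCs, a ratio of 3.48 (2.999 to 3.99). In T cells it had 731 counts (15.25 FPKM) in the treated library and 485 counts (10.02 FPKM) in the PBS library, a ratio of 0.58 (0.41 to 0.75) that was not called. Its level in PBS DCs was the lowest of the 8 genes in that library.

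The Q genes are close enough in sequence for their reads to be shared. In the GENCODE M21 annotation, the coding sequences of H2-Q6 and H2-Q7 were 95.7% identical at the nucleotide level over 977 aligned bases. H2-Q4 was 91.5% identical to H2-Q6 and 91.8% to H2-Q7. The classical chains were nearly as close to H2-Q4. Identity to H2-K1 and H2-D1 was 91.2% and 91.2% for H2-Q4, 90.3% and 91.1% for H2-Q6, and 91.0% and 91.0% for H2-Q7. Of the distinct 50-base windows of the transcripts, 24.3% of H2-Q4, 32.0% of H2-Q6 and 34.9% of H2-Q7 occurred in another gene, and of the 100-base windows 2.7%, 10.8% and 17.2%. The read length and the treatment of reads with several matches are not given in the sources used here, so the split between these genes is uncertain. Summed over H2-Q4, H2-Q6 and H2-Q7, DCs had 506 counts in the treated library and 1146 in the PBS library, a ratio of -0.36 (-0.51 to -0.21) that was not called, and T cells had 3847 and 4012 counts, a ratio of -0.07. The sum of H2-Q6 and H2-Q7 alone stayed lower in treated DCs, with a ratio of -1.34. Both sums cover sharing among the Q genes summed, not with other genes. H2-Q5 held the most 50-base windows of H2-Q7, 17.4%. H2-K1 had 22301 counts in treated DCs and 55529 in PBS DCs, and H2-D1 21965 and 82011. Of their own 50-base windows, 6.9% and 13.9% occurred in another gene. The effect of reads shared with H2-Q5, H2-K1 or H2-D1 was not tested.

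**Figure D3:**
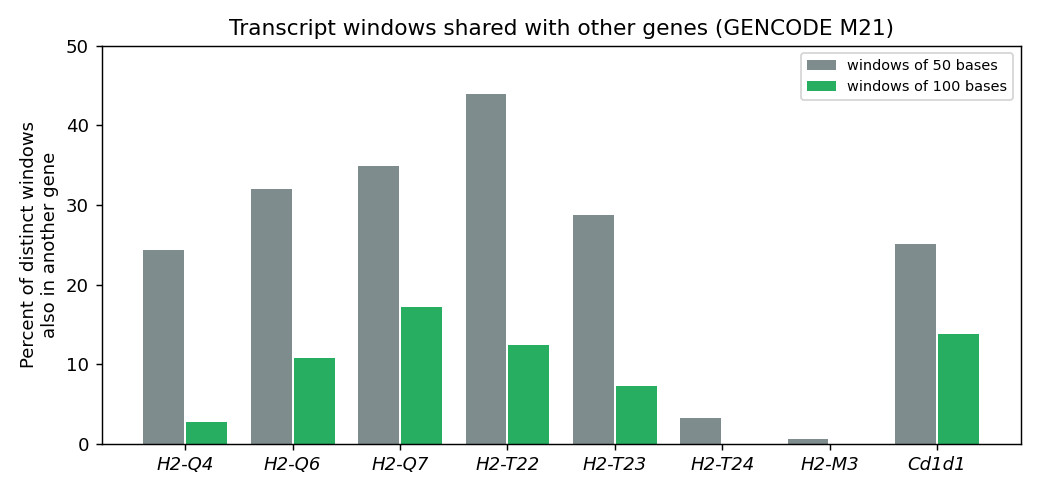
Percent of distinct transcript windows of each gene that also occur in another gene of GENCODE M21, for windows of 50 bases (grey) and 100 bases (green). H2-T22 has the highest share at 50 bases, 43.9%, and H2-M3 and H2-T24 have the lowest, 0.6% and 3.2%.

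The T region genes lie together on the minus strand: H2-T24 (ENSMUSG00000053835) at chr17:36316587-36331452, H2-T23 (ENSMUSG00000067212) at chr17:36340665-36343747 and H2-T22 (ENSMUSG00000056116) at chr17:36348020-36353639. H2-T23, the gene of Qa-1, had 850 counts (20.9 FPKM) in treated DCs and 1420 counts (20.65 FPKM) in PBS DCs, a ratio of 0.08 (-0.05 to 0.20). Its interval covered 0, and it is the one gene of the 8 with no difference beyond counting error in DCs. In T cells it had 7978 counts (149.6 FPKM) in the treated library, against 5741 counts (107 FPKM) in the PBS library, a ratio of 0.46 (0.41 to 0.51). It ranked above 95.5% of detected genes in treated T cells and above 94.4% in PBS T cells. Of its 50-base transcript windows 28.8% occurred in another gene, and of its 100-base windows 7.3%.

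H2-T22 had 515 counts (10.7 FPKM) in treated DCs, against 1825 counts (22.5 FPKM) in PBS DCs, and its ratio of -1.01 (-1.15 to -0.86) lay at the 2-fold limit. In T cells the treated library was the higher one, with 6116 counts (97.0 FPKM) against 3447 counts (54.1 FPKM) in the PBS library, a ratio of 0.81 (0.75 to 0.88) that stayed inside the limit. H2-T10, a close copy with 97.0% coding identity that is also a gamma delta T cell ligand, had 0 counts in treated DCs and 19 in PBS DCs, and 1139 counts in treated T cells against 308 in PBS T cells. The sum of H2-T22 and H2-T10 gave -1.02 in DCs, called lower, and 0.94 (0.88 to 0.995) in T cells, not called.

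H2-T24 was the most uneven of the 8. It had 0 counts in treated DCs, against 613 counts (11.8 FPKM) in PBS DCs. With the floor of 3 counts for the library at 0, it was 116-fold lower in treated DCs. It was 93.9-fold lower at the nearer limit of the counting interval. In T cells it was detected the other way round, with 409 counts (10.15 FPKM) in the treated library and 8 counts (0.197 FPKM) in the PBS library, a ratio of 5.66 (4.67 to 6.89). Such gaps were not particular to it: of 2615 genes with 300 to 1000 counts in PBS DCs, 298 (11.4%) had 0 counts in treated DCs, and of 2999 genes in that range in treated T cells, 49 (1.63%) had 10 or fewer counts in PBS T cells. H2-T24 shares few bases with other genes (3.2% of 50-base windows and none of the 100-base windows), and no other gene of the tables overlaps any of the 8 loci.

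H2-M3 (ENSMUSG00000016206, chr17:37581111-37585375, plus strand) had 812 counts (40.2 FPKM) in treated DCs, against 4810 counts (141 FPKM) in PBS DCs. The treated DC library was lower by a ratio of -1.75 (-1.86 to -1.64). In T cells it had 4506 counts (169.7 FPKM) in the treated library, against 3056 counts (114 FPKM) in the PBS library, a ratio of 0.55 (0.48 to 0.61). It had the lowest share of 50-base windows found in another gene, 0.6%, of the 8.

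Cd1d1 (ENSMUSG00000028076), on chromosome 3 at chr3:86903141-86906748 on the minus strand, is the one gene of the 8 outside the MHC. It had 169 counts (4.68 FPKM) in treated DCs, against 761 counts (12.4 FPKM) in PBS DCs, a ratio of -1.35 (-1.60 to -1.11). In T cells it had 628 counts (13.2 FPKM) in the treated library, against 269 counts (5.61 FPKM) in the PBS library, a ratio of 1.21 (1.002 to 1.42). It was called in both cell types, in opposite directions. Its paralog Cd1d2, which holds 25.1% of its 50-base windows, had 0 counts in treated DCs, 11 in PBS DCs and 0 in both T cell libraries, and adding the pair together left both calls in place (-1.37 in DCs and 1.21 in T cells).

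Summed over the 8 genes, DCs held 87.8 FPKM in the treated library and 220.4 FPKM in the PBS library, and T cells 496 FPKM in the treated library and 336 FPKM in the PBS library. Set against the summed FPKM of the classical H2-K1 and H2-D1, the 8 genes amounted to 7.66% in treated DCs, 10.34% in PBS DCs, 11.8% in treated T cells and 10.8% in PBS T cells. The makeup of the sum differed between the DC libraries: H2-M3 supplied 45.8% of it in treated DCs against 63.8% in PBS DCs, and H2-T23 supplied 23.85% against 9.37%. In T cells H2-M3 supplied 34.2% in the treated and 33.9% in the PBS library, and H2-T23 30.15% and 31.7%.

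**Figure D4:**
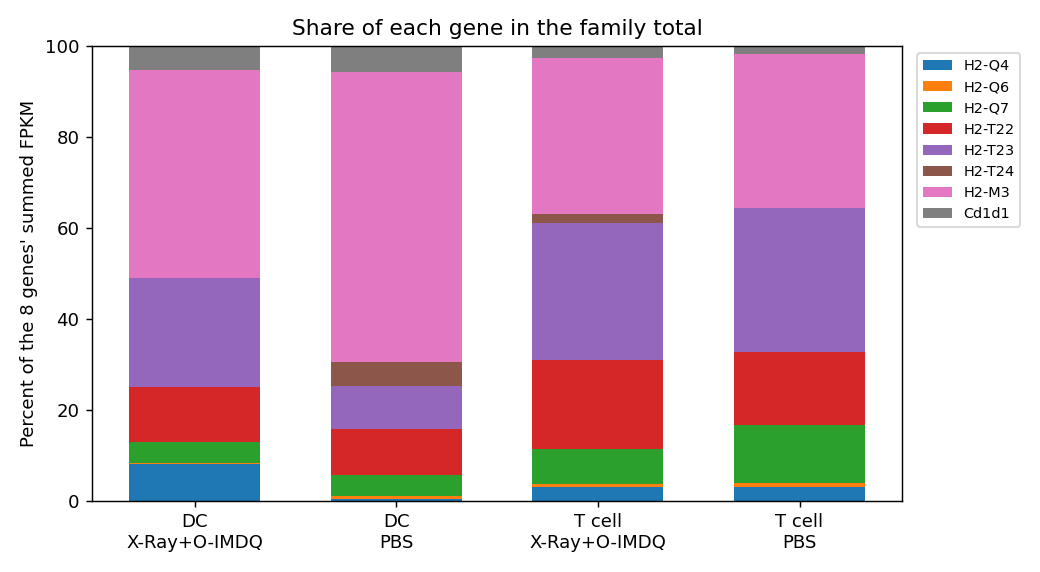
Percent of the 8 genes' summed FPKM supplied by each gene in the 4 libraries, 1 stacked bar per library. H2-M3 is the largest segment in all 4 bars, 45.8% in treated DCs, 63.8% in PBS DCs, 34.2% in treated T cells and 33.9% in PBS T cells.

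The classical chains and the light chain were set beside the 8 genes. B2m, the light chain shared by most class I molecules, had 66320 counts in treated DCs and 52752 in PBS DCs, and was called higher with a ratio of 1.15. H2-D1 was called lower in treated DCs at -1.08 and H2-K1 was not called at -0.50. In T cells none of the 3 was called, with ratios of 0.43 for H2-K1, 0.39 for H2-D1 and -0.04 for B2m. The remaining Qa, Tla and M region genes were mostly silent: of 18 in the tables, 14 had 0 counts in treated DCs and 13 in PBS DCs, and 1 was measured there, H2-Q5, which was not called (-0.07). In T cells 4 of them were measured, of which H2-Q10, a secreted class I chain known from liver, had 915 counts in the treated library against 15 in the PBS library (5.92), H2-T10 was higher (1.87), H2-Bl had 0 counts against 63 and H2-Q5 was not called (0.60).

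Of the 13 genes for class I assembly and peptide supply, DCs had 1 called higher and 4 called lower (median 0.07), and T cells had none higher and 1 lower (median 0.04). Erap1, the aminopeptidase that trims peptides in the endoplasmic reticulum, was called lower in both cell types, at -2.16 in DCs and -1.44 in T cells. Psmb10, an immunoproteasome subunit, was lower in treated DCs (-1.30) and not called in T cells (0.55). Psmb8 and Psme2, also of the proteasome system, were not called in DCs (0.35 and 0.14) or in T cells (0.08 and -0.13).

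Of the 13 transcription factors of class I promoters, 4 were called higher and 2 lower in each cell type, with medians of 0.30 in DCs and 0.63 in T cells. Nlrc5, the class I transactivator, had 834 counts in treated DCs against 2181 in PBS DCs, a ratio of -0.57 that was not called, and 12747 counts in treated T cells against 6119 in PBS T cells, called higher at 1.05. Irf1, which binds interferon-response elements, was called higher in treated DCs (1.77) and not called in T cells (0.89). Rfx5, a subunit of the RFX complex that binds the X box, had 122 counts in treated DCs against 11 in PBS DCs and 3 counts in treated T cells against 177 in PBS T cells, and is named after its values were seen. So is Nfyc, a subunit of NF-Y, which binds CCAAT: it had 1 count in treated DCs against 631 in PBS DCs, a ratio of -8.48 (-13.79 to -5.999), and was not called in T cells (0.63).

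Outside the MHC, 7 class I-like genes were measured in DCs (none higher, 3 lower) and 8 in T cells (4 higher, 2 lower). Hfe, the class I-like regulator of iron uptake, was lower in treated DCs (-1.84). In T cells it had 298 counts in the treated library and 0 in the PBS library. That was 98.5-fold higher with the floor of 3 counts, and 79.6-fold at the nearer limit of the counting interval. Fcgrt, the heavy chain of the neonatal Fc receptor, was not called in DCs (-0.77) and was higher in treated T cells (4.23). Procr, the endothelial protein C receptor, was not called in DCs (0.30) and had 0 counts in treated T cells against 129 in PBS T cells. Ulbp1, a stress-induced ligand of the NKG2D receptor, had 0 counts in treated DCs against 117 in PBS DCs and was not called in T cells (0.64). H60b, another NKG2D ligand, was higher in treated T cells, with 193 counts against 62 in PBS T cells.

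Of 10 genes for lipid loading and trafficking of Cd1d, DCs had 2 called higher and 4 lower (median -0.37), and T cells had none higher and 2 lower (median 0.13). Gm2a, the GM2 activator protein that lifts glycolipids, was lower in treated DCs (-1.52), as was the endosomal protease Ctss (-1.19); neither was called in T cells (0.06 and 0.31). The saposin precursor Psap was not called in DCs (0.10) or T cells (0.21), and neither was the sterol carrier Npc2 (-0.46 and 0.71). Mttp, which loads lipid onto Cd1d, was higher in treated DCs (2.18) and lower in treated T cells (-1.08); it too is named after its values were seen.

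**Figure D5:**
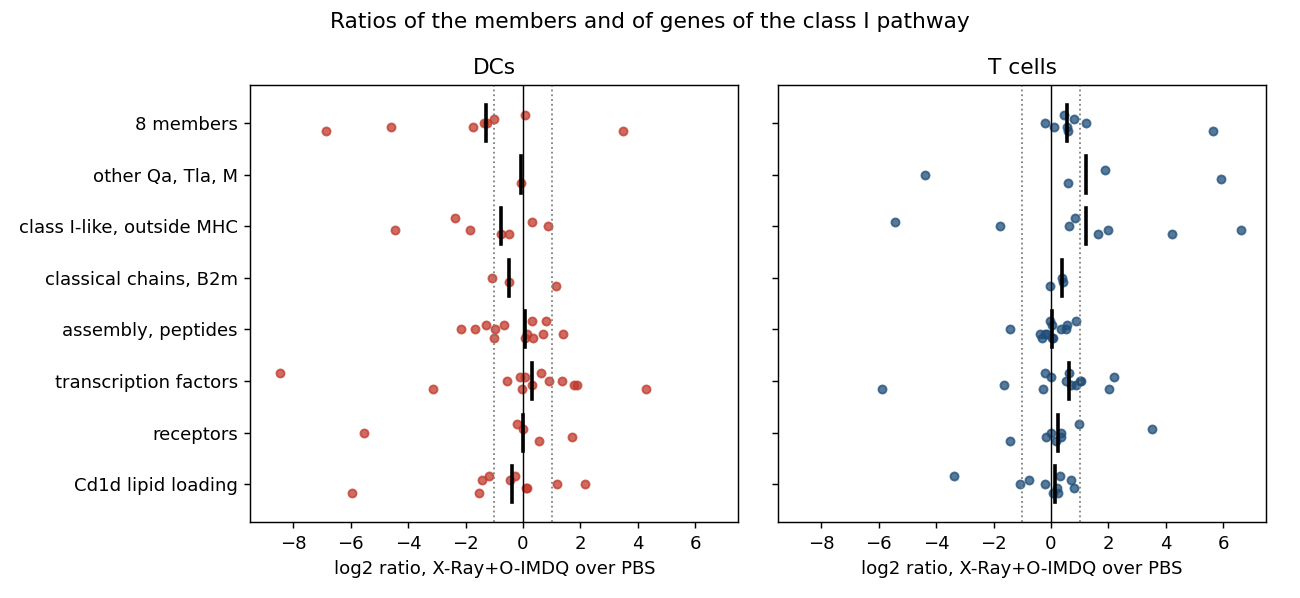
Log2 ratios of X-Ray+O-IMDQ over PBS for the measured genes among the 8 and in each pathway list. DCs are in the left panel and T cells in the right panel. Each point is a gene, the black tick is the list's median, and dotted lines mark 2-fold. A gene at 0 counts in one library is drawn at its ratio with a floor of 3 counts. In DCs the 8 genes have a median of -1.29 and the assembly genes 0.07; in T cells the medians are 0.56 and 0.04.

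Among the listed receptors for non-classical class I or class I-like molecules, the 4 most abundant in the T cell libraries were not called there. Klrd1 (CD94), a chain of the Qa-1 receptor, had 25323 counts in treated T cells and 28011 in PBS T cells (-0.16). Klrk1 (NKG2D), the receptor of the class I-like ligands Ulbp1 and H60b named above, had 23739 and 20747 (0.18). The CD8 chains Cd8a and Cd8b1 had ratios of 0.02 and 0.34 in T cells. Among 8 measured receptors 1 was higher and 1 lower in treated T cells, Klrc3 (3.53) and Klrc2 (-1.43), both chains of the NKG2 family and both named after their values were seen. In DCs Klrd1 was called higher, with 4116 counts in the treated library against 2206 in the PBS library, while Klrc1 (NKG2A), named after its values were seen, had 4 counts against 328. Of 5 NKT cell genes, T cells had 4 measured, none higher and 1 lower. The lower one was Klrb1c (NK1.1), with 0 counts in the treated library against 140 in the PBS library. Sh2d1a (0.32), Slamf1 (-0.12) and Slamf6 (-0.41) were not called in T cells. Zbtb16, the defining transcription factor of NKT cells, had 0 counts in both T cell libraries. In DCs 1 NKT cell gene was measured, Slamf6, with 155 counts in the treated library against 1466 in the PBS library.

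Markers of other cells differed between the DC libraries, in mixed directions. The summed level of 10 conventional DC markers was 6648 CPM (TMM-scaled) in treated DCs and 48941 in PBS DCs, a sum made mostly by H2-Ab1, with 4 markers higher and 3 lower. The 8 macrophage markers summed to 1416 CPM in treated DCs and 5695 CPM in PBS DCs, none higher and 4 lower, and none was at 0. The 6 NK cell markers summed to 123 CPM in treated DCs and 10.08 CPM in PBS DCs, all 3 measured ones higher, with Ncr1 and Prf1 at 0 in both libraries. The 8 T cell markers summed to 95.5 CPM in treated DCs and 90.4 CPM in PBS DCs, near-equal sums of 3 markers called higher and 3 called lower. Neutrophil markers summed to 76.5 CPM in treated DCs and 26.2 CPM in PBS DCs, of which S100a8, with 1009 counts in treated DCs and 90 in PBS DCs, was called higher, while Mmp8 and Csf3r were called lower. Epithelial markers summed to 56.4 CPM in treated DCs, all of it Cdh1, and 36.3 CPM in PBS DCs, with Epcam at 0 counts in treated DCs against 219 in PBS DCs. Fibroblast markers summed to 147 CPM in treated DCs and 70.7 CPM in PBS DCs, with all 3 measured ones higher. The one B cell marker measured in DCs, Cd79b, was called lower, with 177 counts in treated DCs against 986 in PBS DCs, and Ms4a1 and Pax5 were at 0 in both.

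Markers of other cells also differed between the T cell libraries, in mixed directions. The 8 T cell markers summed to 11249 CPM in treated T cells and 10607 CPM in PBS T cells, with 1 higher, Cd28, and none lower. Macrophage markers summed to 153 CPM in treated T cells and 184 CPM in PBS T cells, none higher and 3 lower, Adgre1 among them with 0 counts against 334. Fibroblast markers summed to 66.9 CPM in treated T cells and 105 CPM in PBS T cells, with 3 of 4 measured lower. Conventional DC markers summed to 364 CPM in treated T cells and 433 CPM in PBS T cells, 2 higher and 3 lower. NK cell markers summed to 2015 CPM in treated T cells and 1560 CPM in PBS T cells, 2 higher and 1 lower. The part of the markers of either cell type in the ratios of the 8 genes was not tested. In such bulk libraries, fewer cells of a type and less RNA per cell cannot be told apart.

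H2-T23 had the most counts of the 8 over all libraries. Its pattern over the 4 libraries, as log2(FPKM + 1) centred on its own mean, was closest to those of Rundc3b, Adamts14 and Hexim2 among 10545 genes, at Euclidean distances of 0.089, 0.090 and 0.102. All 3 were at 0 in both DC libraries and between 3.59 and 6.53 FPKM in T cells. H2-T23 itself had 20.9 FPKM in treated DCs and 20.65 FPKM in PBS DCs, so the likeness is not one of level and depends on the 1 added to each FPKM. The distance also spans DC and T cell levels from separate tables. The nearest of the other 7 was H2-T22, at rank 445.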

How the data were processed

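RNA of 4 libraries was measured, 1 in each group. Reads were processed against the mouse build GRCm39 with, among the tools listed in the submitters' processing notes, RSEM 1.2.12 and HISAT2 2.0.4, next to R 3.3.1 and DESeq2 1.24.0; their order and roles are not given in the sources used here. Per the file headers, the authors deposited a read count and an FPKM per gene and library in a table for DCs and another for T cells. The deposited FPKM equal the count divided by the deposited gene length and the library's total, within a relative difference of 2.04e-07. Each column was tied to its sample through the read file name in the labels, since the replicate numbers in titles and read file names differ. The values of 2 further libraries (4 columns) matched no sample and were not used here. Genes without a symbol (51) were left out of the calls.

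Counts were scaled with TMM (edgeR 4.0.16, R 4.3.3) over all genes of a cell type. Ratios carry exact conditional binomial intervals (Clopper-Pearson, SciPy 1.17.1) and levels exact Poisson intervals, both at 95%. A library at 0 was set to a floor of 3 counts. No p-value was computed, since there is 1 library per group, and the reads carry no molecular identifiers, so intervals and floors cover counting error only. The ratio step was tested on simulated counts. Alternatives were other scalings, among them DESeq2 1.42.0 size factors, centring, filters, thresholds, log2(CPM + 1) and sums of near-identical genes.

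The 8 genes, the gene lists and the tests were chosen with earlier results of these data known. The genes named from a pathway list are mainly of 3 kinds. They are the 2 to 4 with the highest summed CPM, those called in the same direction in both cell types and those at 0 in 1 library only. Other names from these lists are marked as chosen after their values were seen, except Zbtb16 and the paralog Cd1d2. Marker genes of cell types are outside this rule. Protein identity was planned and was not computed; nucleotide identity of coding sequences (Biopython 1.88) and shared transcript windows, chosen after seeing the data, stand in its place. Promoter windows are RefSeq's on GRCm38.p6 and were not joined to the GRCm39 coordinates.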

Additional observations from a re-analysis of the deposited data

Results flagged for a closer look

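For 4 of the 8 genes the ratios in DCs and T cells had opposite signs, and both counting intervals excluded 0. The same count over all genes was not made, so this is not shown to be particular to the 8. The DC ratio minus the T cell ratio, on the log2 scale, was -12.52 for H2-T24. There the DC ratio is set by the floor of 3 counts. This difference was -1.82 for H2-T22, -2.295 for H2-M3 and -2.56 for Cd1d1. The difference between the cell types was not tested, since each group has 1 library. H2-Q4, H2-Q7 and H2-T23 had the same sign in both cell types, and the T cell interval of H2-Q6 covered 0.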

How the results depend on the processing

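No paired analysis was possible because each group has 1 library, and for the same reason no library could be left out. A filter of 20 counts in both libraries left 1825 genes called lower in DCs and 1378 in T cells, and 1 of the 8 genes called higher in T cells, since it removes genes at or near 0 in one library; 55.7% of the genes called in DCs were then higher, against 41.9% otherwise. A 4-fold limit left 1922 genes higher and 3295 of 10316 lower in DCs, 1003 higher and 1774 lower in T cells, with 2 of the 8 genes lower in DCs and 1 higher in T cells. Centring on the median of all genes moved every DC ratio up by 0.36 and left 3 of the 8 lower, without H2-Q7 (-0.88), H2-T22 (-0.65) and Cd1d1 (-0.996). H2-T22 also lost its call in DCs under upper-quartile scaling (-0.96) and with log2(CPM + 1) (-0.99). Summing the 3 Q genes, of whose 1146 counts in PBS DCs H2-Q7 holds 1019, gave a DC ratio of -0.36 that was not called. That ratio belongs to the sum, not to H2-Q4, H2-Q6 or H2-Q7 alone. The higher call of H2-Q4 in DCs was the same in 12 of 13 alternatives, this sum being the other. Of 319 list medians recomputed under the alternatives, 36 moved by at least 0.1. The counts of H2-Q6 in treated DCs (2) and of H2-T24 in PBS T cells (8) limit the precision of those ratios.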
